A study of Homo sapiens with 8 samples.

Results

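Retinoid genes were followed in the RNA of Hct116, a human line of colorectal carcinoma cells, exposed for 16 h to lenalidomide at 30 μM or to an equal amount of the solvent DMSO. Lenalidomide is a thalidomide derivative that redirects the CRL4-CRBN ubiquitin ligase to new protein substrates, and RNA was sequenced to ask whether the drug also altered transcript levels. There were 4 libraries of total RNA per treatment, all from the same line, made from cells of a metabolic protein labelling experiment in which 2 of the 4 samples per treatment had the labels exchanged, and which 2 the labels do not say. The 9 genes described are NRIP1, ALDH1A3, RARA, RARB, RARG, RXRA, RXRB, DHRS3 and CRABP2, taken by symbol from 23459 genes in the deposited count table. They were brought together because NRIP1 was higher and ALDH1A3 lower with lenalidomide in these same libraries. Differences between treatments in the 9 genes are therefore given as descriptions, with no p for a single gene, and the number past a threshold is printed only beside its share over all genes. The labels do not say whether the libraries came from separate cultures, and the paper calls its replicates biological in one place and technical in another, so that errors may measure technical spread only.

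Retinoic acid is made from vitamin A by oxidation of retinol to retinal and of retinal to retinoic acid. It is carried to the nucleus by small binding proteins and acts on receptors of the RAR family, which bind DNA as heterodimers with RXR receptors and exchange corepressors for coactivators when the ligand is present. ALDH1A3 is one of the retinal dehydrogenases that make retinoic acid, and DHRS3 turns retinal back into retinol. CRABP2 is a cytoplasmic retinoic acid binding protein, and NRIP1, also known as RIP140, is a ligand-dependent corepressor of many nuclear receptors. In the intestinal epithelium retinoids are known to act on differentiation, and RARB is a classical direct target of retinoic acid.

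Sequences before the start sites of NRIP1 and ALDH1A3 are shown because the RNA of these genes differed most between treatments, and that of RARB because it holds the best known RAR binding element and its gene was almost silent here. Each is the 250 bases before a RefSeq start site on GRCh38.p14, 5′ to 3′, at chr21:15065937-15066186 on the minus strand for NRIP1, chr15:100879581-100879830 on the plus strand for ALDH1A3 and chr3:25428013-25428262 on the plus strand for RARB. Capitals mark a DR5 element, a pair of the repeat AGGTCA or its variants AGTTCA and GGGTCA and also GGTTCA in the same direction with 5 bases between them, searched on both strands.
NRIP1: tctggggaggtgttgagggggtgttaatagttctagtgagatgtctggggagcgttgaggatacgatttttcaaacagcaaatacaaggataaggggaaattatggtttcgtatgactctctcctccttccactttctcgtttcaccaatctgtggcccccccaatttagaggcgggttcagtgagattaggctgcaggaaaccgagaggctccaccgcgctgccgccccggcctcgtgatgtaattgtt
ALDH1A3: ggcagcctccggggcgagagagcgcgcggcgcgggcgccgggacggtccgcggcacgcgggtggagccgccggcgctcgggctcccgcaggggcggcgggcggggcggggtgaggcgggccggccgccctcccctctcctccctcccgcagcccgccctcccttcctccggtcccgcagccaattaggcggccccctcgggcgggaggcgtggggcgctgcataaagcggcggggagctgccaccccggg
RARB: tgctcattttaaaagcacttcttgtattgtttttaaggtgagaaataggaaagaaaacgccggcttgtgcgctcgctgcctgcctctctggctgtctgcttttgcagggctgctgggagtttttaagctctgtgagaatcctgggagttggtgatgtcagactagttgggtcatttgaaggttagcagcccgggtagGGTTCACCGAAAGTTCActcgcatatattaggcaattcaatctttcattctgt
The RARB window held 1 DR5 element, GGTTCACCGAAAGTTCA, from base -53 to base -37 relative to the start site. No other window of the 9 genes held a DR5, or the same repeats with spacings of 2 bases (DR2) or 1 base (DR1). All 9 genes matched a RefSeq entry by symbol. A DR5 was present in 26 of 35116 such windows over all genes, or 0.074%, a DR2 in 0.0313% and a DR1 in 0.0968%. GC content was 50.8% for the NRIP1 window shown, 82.4% for ALDH1A3 and 46% for RARB. These letters are a description, and no binding was measured.

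The deposited values are raw exonic read counts per gene, and library totals were between 28218471 and 37473413. All 4 totals with lenalidomide were below the smallest DMSO total, so that depth moved with treatment. Lenalidomide replicate 4 had the smallest total but the most genes with any count, 19568, against 16953 in DMSO replicate 1. What this does to genes with few counts was not tested. Counts were scaled to CPM, the reads of a gene relative to the library total, with TMM factors between 0.9707 and 1.023. Of the 23459 genes, 13925 had enough counts to be tested by edgeR's quasi-likelihood test. The epithelial markers EPCAM, CDH1, KRT8, KRT18 and KRT19 had means between 57.8 and 837 CPM. Of the intestinal markers, CDX2 had 8.3 CPM, and VIL1, CDX1, LGR5 and CEACAM5 were each at 0.0598 CPM or less, so that epithelial markers were present and most intestinal ones nearly absent. The blood markers PTPRC and CD3E were each at a mean of 0.09 CPM or less, although PTPRC was between 0.0912 and 0.208 CPM with lenalidomide and at most 0.0535 CPM with DMSO. Among fibroblast, muscle and endothelial markers COL1A1 had 2.97 CPM, ACTA2 2.47, DES 1.36, VWF 0.367, PECAM1 0.069 and COL1A2 0.0226. The part of other cells in the results was not tested.

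Of the 9 genes, 8 were tested and RARB had too few counts. After Benjamini-Hochberg adjustment the edgeR test put 0 of the 8 past the threshold of 0.05, against 2 of all 13925 genes, or 0.0144%. At an unadjusted p under 0.05 there were 5 of the 8, 2 higher and 3 lower with lenalidomide, where the share over all genes was 4.18%, with 3.26% higher and 0.919% lower. DESeq2 put 2 of the 8, NRIP1 and ALDH1A3, under an adjusted p of 0.05, and 9 genes or 0.0646% overall. Since the genes were chosen from this same contrast, nothing is read from these shares or calls.

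ALDH1A3 (Entrez gene 220; chromosome 15 of GRCh37, 101417919 to 101456831, plus strand) was at 393.8, 369.9, 426.7 and 368.5 CPM in DMSO replicates 1 to 4. With lenalidomide it was at 318.4, 319, 320.4 and 285.2 CPM. All 4 lenalidomide values lay below all 4 DMSO values, and lenalidomide replicate 4 lay below the other 3, which were nearly equal. The mean of the 4 DMSO libraries was 389.7 ± 27.3 CPM, and that of the 4 lenalidomide libraries 310.8 ± 17.1 CPM (SD). The fitted log2 fold change was -0.33 (standard error 0.0633, 95% confidence interval -0.46 to -0.19), a difference of -20.3%. Without DMSO replicate 3, the highest library, it was -0.284, and without lenalidomide replicate 4 it was -0.288. The exons of ALDH1A3 share 1715 bases with the antisense RNA gene ALDH1A3-AS1 and 63 with a same-strand RNA gene, and since no strand setting is stated for the counts, reads of both cannot be told apart.

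DHRS3 (Entrez gene 9249; chromosome 1, 12627939 to 12678216, minus strand), the retinal reductase that works against ALDH1A3 in the pathway, was at 41.57, 42.66, 48.21 and 45.59 CPM in DMSO replicates 1 to 4. With lenalidomide it was at 37.3, 39.12, 39.96 and 38.17 CPM. The groups did not overlap, and every lenalidomide library was below the lowest DMSO library. The log2 fold change was -0.20 (standard error 0.0589, 95% confidence interval -0.33 to -0.08). DHRS3 is also known as a gene that retinoic acid induces. The 11 tested genes listed as retinoic acid receptor targets had a median log2 fold change of 0.0576. Whether retinoic acid had a part in the DHRS3 difference was not tested. No exon of another gene overlaps its exons in GENCODE.

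CRABP2 (Entrez gene 1382; chromosome 1, 156669398 to 156675608, minus strand), which hands retinoic acid to RAR, was at 101.2, 109.6, 122.7 and 103.8 CPM in DMSO replicates 1 to 4. With lenalidomide it was at 116, 126.6, 120.2 and 117.5 CPM. DMSO replicate 3 lay within the lenalidomide range and the other 3 DMSO libraries below it, so that the groups overlapped through 1 library. The log2 fold change was 0.14 (standard error 0.0633, 95% confidence interval 0.00 to 0.27). It was 0.192 without DMSO replicate 3 and 0.0966 without DMSO replicate 1.

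NRIP1 (Entrez gene 8204; chromosome 21, 16333556 to 16438257, minus strand) was at 142.6, 134.9, 132.8 and 144.3 CPM in DMSO replicates 1 to 4. With lenalidomide it was at 169, 162.9, 181.7 and 174 CPM. All 4 lenalidomide values lay above all 4 DMSO values. The 4 DMSO libraries had a mean of 138.6 ± 5.64 CPM and the 4 lenalidomide libraries one of 171.9 ± 7.95 CPM (SD), a coefficient of variation of 4.07% and 4.63%. The log2 fold change was 0.31 (standard error 0.0537, 95% confidence interval 0.19 to 0.43), or 1.24-fold on a linear scale. In counts, NRIP1 was as large in the smaller lenalidomide libraries (5020 to 5975) as in the DMSO libraries (4545 to 5464). When all libraries were thinned to equal depth, the log2 fold change was 0.318, and that of ALDH1A3 was -0.323. The exons of NRIP1 share 562 bases with a long non-coding RNA gene on the opposite strand and 87 bases with another on the same strand.

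**Figure D1:**
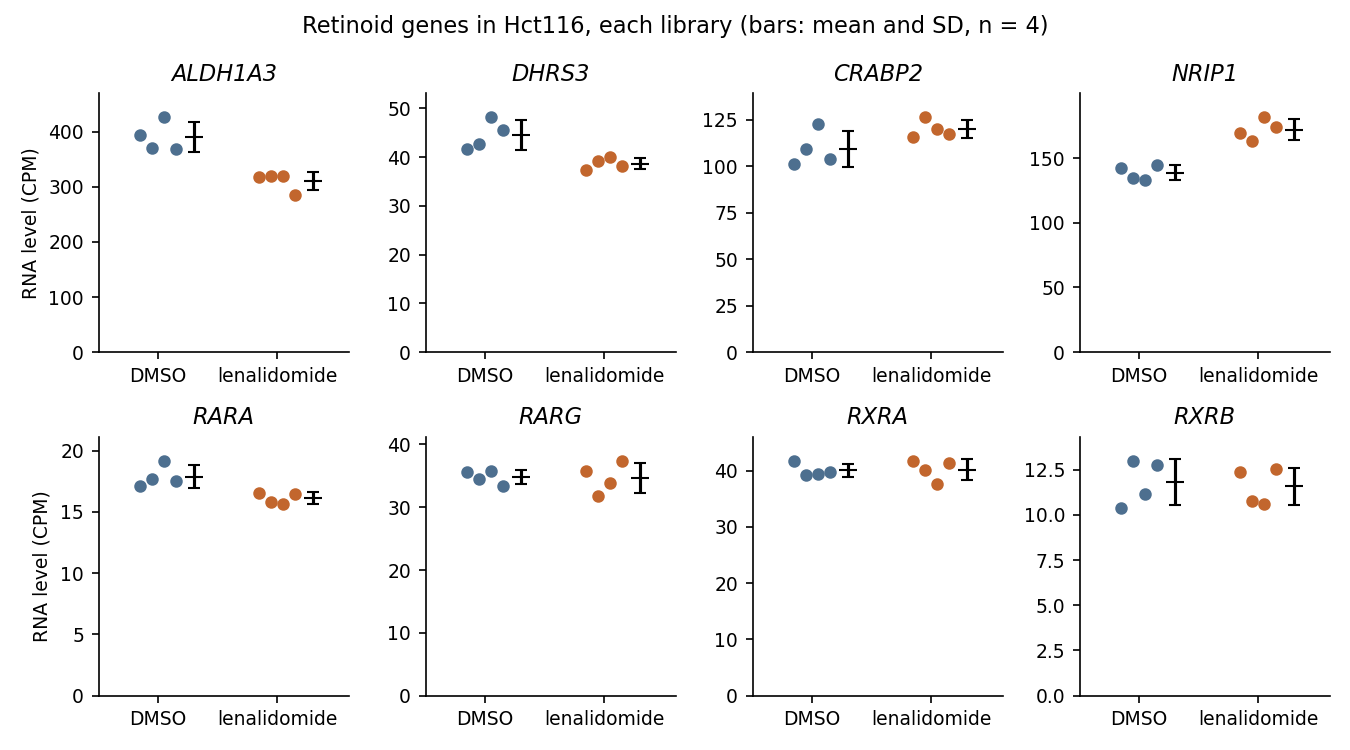
RNA level in CPM (vertical axes, from 0) of the 8 genes with enough counts, with 1 point per library in the order of replicates 1 to 4 and bars for the mean and SD (n = 4). The points of ALDH1A3, DHRS3 and RARA lie lower with lenalidomide than with DMSO and those of NRIP1 higher, without overlap, and the points of CRABP2, RARG, RXRA and RXRB overlap.

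Among the RAR genes, RARA (Entrez gene 5914; chromosome 17, 38465432 to 38513895) was at 17.1, 17.71, 19.2 and 17.56 CPM in DMSO replicates 1 to 4 and at 16.57, 15.8, 15.66 and 16.5 CPM with lenalidomide. Each lenalidomide library had less RARA than each DMSO library. For RARA the fitted log2 difference was -0.15 (standard error 0.0641, 95% confidence interval -0.29 to -0.01). RARA overlaps the exons of RARA-AS1 on the opposite strand over 556 bases, and those of further opposite-strand genes over 291 and 168 bases.

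RARG (Entrez gene 5916; chromosome 12, 53604351 to 53626764) was at 35.6, 34.46, 35.74 and 33.32 CPM in DMSO replicates 1 to 4 and at 35.71, 31.85, 33.81 and 37.44 CPM with lenalidomide. Its lenalidomide values spanned the whole DMSO range, and the log2 fold change was -0.0038 (95% confidence interval -0.13 to 0.13), with a sign that changed between alternatives. The interval leaves room for differences of up to 0.13 on the log2 scale in either direction.

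RARB (Entrez gene 5915; chromosome 3, 24729378 to 25639423) had 0 counts in all 4 DMSO libraries. In the lenalidomide libraries it had 1, 0, 2 and 3 counts in replicates 1 to 4. With the limit that a count of 0 allows taken as 3 counts per library, between 0.0792 and 0.104 CPM, both groups were at or under that limit and no fold change is given. The gene with the DR5 element shown above was thus the 1 receptor gene of the RAR family not detected beyond this depth.

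Of the RXR genes, RXRA (Entrez gene 6256; chromosome 9, 137208944 to 137332431) was at 41.81, 39.24, 39.42 and 39.73 CPM in DMSO replicates 1 to 4 and at 41.77, 40.11, 37.61 and 41.32 CPM with lenalidomide. The groups overlapped, although DMSO replicate 1 was the highest library, and the log2 difference was 0.0052 (95% confidence interval -0.11 to 0.12). RXRB (Entrez gene 6257; chromosome 6, 33161365 to 33168442) was at 10.39, 13, 11.13 and 12.75 CPM with DMSO and at 12.39, 10.77, 10.58 and 12.55 CPM with lenalidomide. Its log2 fold change was -0.03 (95% confidence interval -0.23 to 0.17), the widest interval of the 8 genes. RXRG, the third RXR gene, had 5 counts over all 8 libraries.

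**Figure D2:**
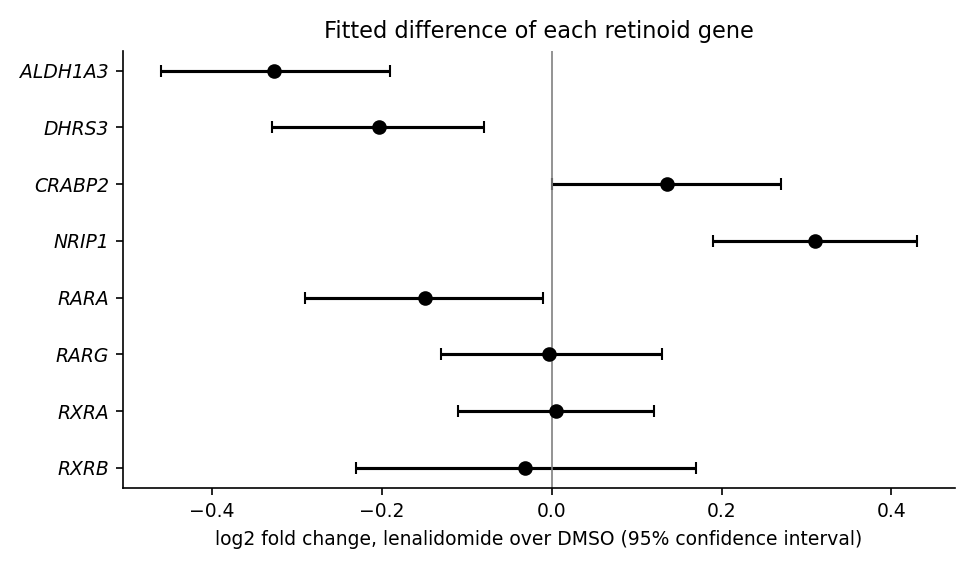
Fitted log2 fold change of lenalidomide over DMSO (horizontal axis) with its 95% confidence interval for each of the 8 genes (n = 4 libraries per treatment). NRIP1 at 0.31 and ALDH1A3 at -0.33 lie farthest from 0 on either side, and the intervals of RARG, RXRA and RXRB include 0. NRIP1 and ALDH1A3 were picked from this same contrast, so the intervals are descriptions and not tests.

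Of the 8 genes, 4 had treatments that did not overlap, NRIP1 above and ALDH1A3, DHRS3 and RARA below. Over all 13925 genes 2.08% did not overlap, 1.24% with lenalidomide higher and 0.84% with lenalidomide lower. NRIP1 and ALDH1A3 were picked for differing in these same libraries, so nothing is read from these shares. The median log2 fold change of the 8 genes was -0.0179, against 0.00253 for all genes tested. The values of CRABP2, RARG, RXRA and RXRB overlapped between treatments.

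Levels of different genes were compared per kilobase of exon (RPKM), from CPM and the exonic width given in the deposited table. With DMSO, ALDH1A3 was at 112 ± 7.81 RPKM and CRABP2 at 93.9 ± 8.23 RPKM (SD, n = 4), and only 3.89% and 4.8% of the genes tested had higher levels. NRIP1 followed at 17.9 ± 0.729 RPKM, DHRS3 at 15.4 ± 1.04 and RARG at 9.37 ± 0.304. RARA was at 3.88 ± 0.197 RPKM, RXRA at 2.39 ± 0.0712 and RXRB at 0.529 ± 0.0565. Each gene was above the next in all 4 DMSO libraries without overlap, although the lowest value of ALDH1A3 and the highest of CRABP2 were both 105 RPKM. ALDH1A3 and CRABP2 were thus the highest of the 9 genes, and the RAR and RXR genes the lowest.

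With lenalidomide the order of the leading pair was turned. CRABP2 was at 103 ± 4.01 RPKM and ALDH1A3 at 88.9 ± 4.88 RPKM (SD, n = 4). The ratio of CRABP2 to ALDH1A3 was between 0.772 and 0.89 in the DMSO libraries and between 1.09 and 1.24 in the lenalidomide libraries. The rank itself depends on the width used. In GENCODE on GRCh37, ALDH1A3 has 5335 exonic bases in place of 3495. The deposited counts were divided by GENCODE widths without counting reads again on GENCODE exons. Counts and widths of this measure thus come from different gene models. By it CRABP2 was first in both treatments, at 101 RPKM against 73.1 RPKM for ALDH1A3 with DMSO. The other 7 genes kept their order with DMSO, but RXRA and RXRB then overlapped, and with lenalidomide RARA and RXRA overlapped as well.

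**Figure D3:**
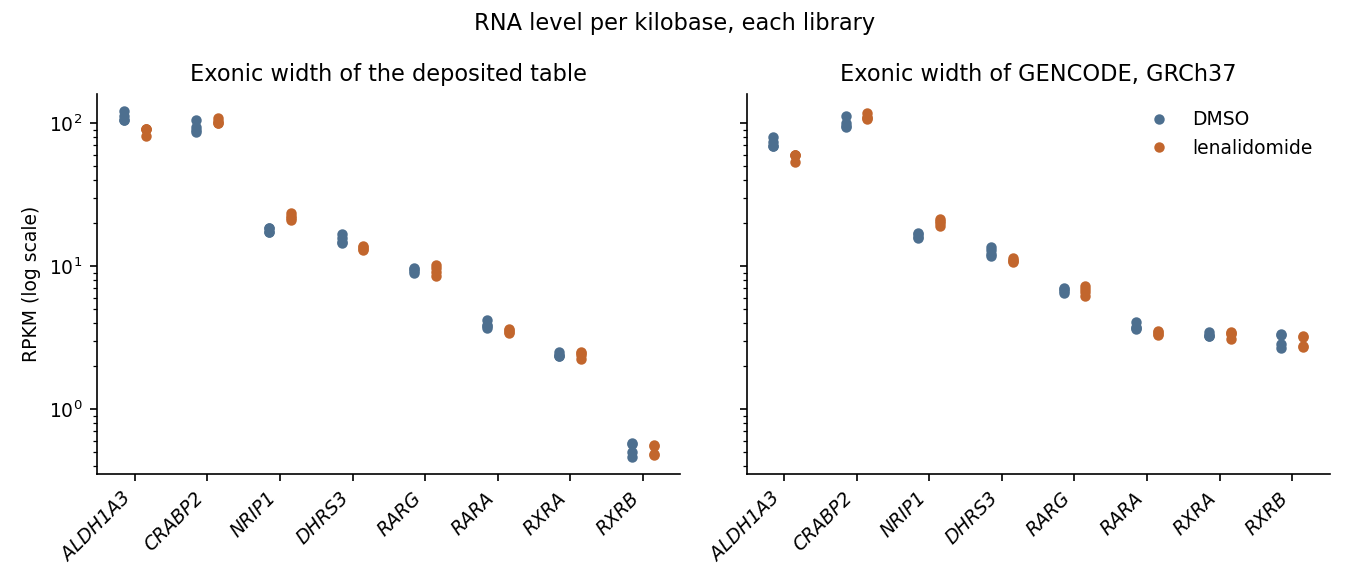
RPKM per library (vertical axes, log scale) of 8 genes with DMSO and lenalidomide. The same counts are divided by the exonic width in the deposited table (left) or by that of GENCODE (right). RARB is left out because its DMSO values are 0. ALDH1A3 and CRABP2 lie far above the receptors in both panels, and RXRB lies at 0.529 RPKM on the left and 3.03 RPKM on the right with DMSO.

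The level of RXRB is uncertain by its position. The table gives it an exonic width of 22344 bases, 5.734 times that of GENCODE. For 158 genes of the major histocompatibility region of chromosome 6 the same ratio had a median of 5.572, against 0.804 for 17902 other genes. The hg19 assembly of UCSC carries alternative copies of this region, and their part in the counts of RXRB was not tested. The place of RXRB in the order of levels depends on the width used. Its log2 fold change does not use the width. The exons of RXRB also share 361 bases with SLC39A7, a protein-coding gene on the opposite strand, and without a strand setting reads of both cannot be told apart.

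RARG made up most of the RAR RNA. Its share of the summed RPKM of RARA, RARB and RARG was 70.7% ± 1 with DMSO and 72.6% ± 0.862 with lenalidomide (SD, n = 4), between 69.8% and 73.6% in the 8 libraries. The share depends on the width used. With DMSO, RARG had 2.41 times the RPKM of RARA by the deposited width and 1.8 times by that of GENCODE. Among corepressors, NRIP1 had between 2.99 and 3.16 times the RPKM of NCOR1, the classical RAR corepressor, in the DMSO libraries and between 3.31 and 4.14 times with lenalidomide.

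Other genes of retinoid metabolism and signalling were read from 9 lists holding 92 genes outside the 9 described, of which 57 had enough counts to be tested. The edgeR test put 0 of the 57 past the adjusted threshold in either direction, and DESeq2 also gave 0. An unadjusted p under 0.05 was found for 2 of the 57, LCOR higher and VDR lower, where the share over all genes was 4.18%. The median log2 fold change was 0.0342, against 0.00253 for all genes tested, and 40 of the 57, or 70.2%, were above 0, against 51.3% of all genes. Treatments did not overlap for 2 of the 57, ESRRA above and VDR below, where the share over all genes was 2.08%. Both counts were near the share over all genes.

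In uptake and binding, 3 of 9 genes were tested and 0 passed. FABP5, a fatty acid binding protein that also carries retinoic acid, had the highest level at 530 RPKM and differed by 0.03 on the log2 scale (95% confidence interval -0.20 to 0.27). Reads of its pseudogenes may be included. The retinol binding protein RBP7 had 24.8 CPM in both treatments, with a standard error of 0.0692 on its log2 difference. STRA6, the retinol uptake receptor, had 9 counts in all 8 libraries together and CRABP1 had 1.

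Of 19 genes that convert retinol and retinal, 9 were tested and 0 passed. The retinal reductase RDH11 was the highest at 65 RPKM, with 169 ± 7.86 CPM (DMSO) and 164 ± 14.7 CPM (lenalidomide) (SD, n = 4). RDH10, which oxidises retinol and works in a complex with DHRS3, had a log2 fold change of -0.04 (95% confidence interval -0.16 to 0.08). AKR1B1 had the highest log2 fold change among those over 5 CPM, 0.17 (standard error 0.0888), with overlapping treatments.

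ALDH1A3 was the 1 retinal dehydrogenase of its family with a clear level. ALDH1A1 had 8 counts and ALDH1A2 12 counts over the 8 libraries, against 95838 for ALDH1A3. ALDH8A1, a more distant relative, had 0.9 ± 0.26 CPM (DMSO) and 1.12 ± 0.235 CPM (lenalidomide) (SD, n = 4). Of these 3 genes 1 was tested and 0 passed.

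In carotenoid cleavage and ester formation 3 of 5 genes were tested and 0 passed. DGAT1, which esterifies retinol among other substrates, had 8.11 ± 1.45 CPM (DMSO) and 9.12 ± 0.772 CPM (lenalidomide), and LRAT, the main retinol esterifying enzyme, had 6.85 ± 0.568 and 6.67 ± 0.401 CPM (SD, n = 4). Among the CYP26 enzymes that break down retinoic acid, CYP26B1 had 6.22 ± 0.462 CPM (DMSO) and 6.9 ± 0.907 CPM (lenalidomide). CYP26A1, the most retinoic acid responsive of them, had 84 counts in all, and CYP26C1 had 6. Of the 3 CYP26 genes 2 were tested and 0 passed.

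Of 12 further receptors, RXRG and partners of RXR, 8 were tested and 0 passed. VDR, the vitamin D receptor, was at 18.8, 17.7, 18.9 and 18.2 CPM in DMSO replicates 1 to 4 and at 16.6, 15.6, 16 and 15.3 CPM with lenalidomide. All lenalidomide values of VDR were below all DMSO values. The edgeR fit gave VDR a log2 fold change of -0.21 with a standard error of 0.0621 and an edgeR adjusted p = 0.999. PPARA, a fatty acid receptor, had the highest log2 fold change of this list among genes over 5 CPM, 0.13 (standard error 0.0826), and NR1H2, an oxysterol receptor, the highest level at 5.7 RPKM.

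All 18 corepressors and coactivators were tested and 0 passed. LCOR, a ligand-dependent corepressor like NRIP1, was at 117, 109, 131 and 132 CPM in DMSO replicates 1 to 4 and at 131, 120, 156 and 159 CPM with lenalidomide. Its treatments overlapped, with a log2 fold change of 0.21 (standard error 0.0905) and an edgeR adjusted p = 0.999. PRAME, a repressor of RAR signalling, was the lowest at -0.12 (standard error 0.0551), and TBL1XR1, a subunit of the NCOR complex, had the highest level at 62.4 RPKM.

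Of 18 genes that retinoic acid receptors are known to regulate, 11 were tested and 0 passed, with a median log2 fold change of 0.0576. HOXA5 and HOXB4, homeobox genes induced by retinoic acid in many cells, had log2 fold changes of 0.09 and -0.02, with 95% confidence intervals that both include 0. The highest and lowest in this list over 5 CPM were CYP26B1 at 0.15 (standard error 0.105) and LRAT at -0.04 (standard error 0.0915). RARRES1 had 3 counts and RARRES3 had 2 over the 8 libraries.

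Of 10 steroid and orphan receptors that NRIP1 is known to bind, 6 were tested and 0 passed. ESR1, the oestrogen receptor with which NRIP1 was first found, had 14 counts in all. NR3C1, the glucocorticoid receptor, had 37.5 ± 3.29 CPM (DMSO) and 36.4 ± 2.61 CPM (lenalidomide) (SD, n = 4). ESRRA, an orphan receptor of energy metabolism, had 22 ± 0.537 and 23.9 ± 0.776 CPM with treatments that did not overlap, a log2 fold change of 0.11 (standard error 0.0567). NR2C1, an orphan receptor, was the highest of this list among genes over 5 CPM, at 0.12 (standard error 0.0793).

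**Figure D4:**
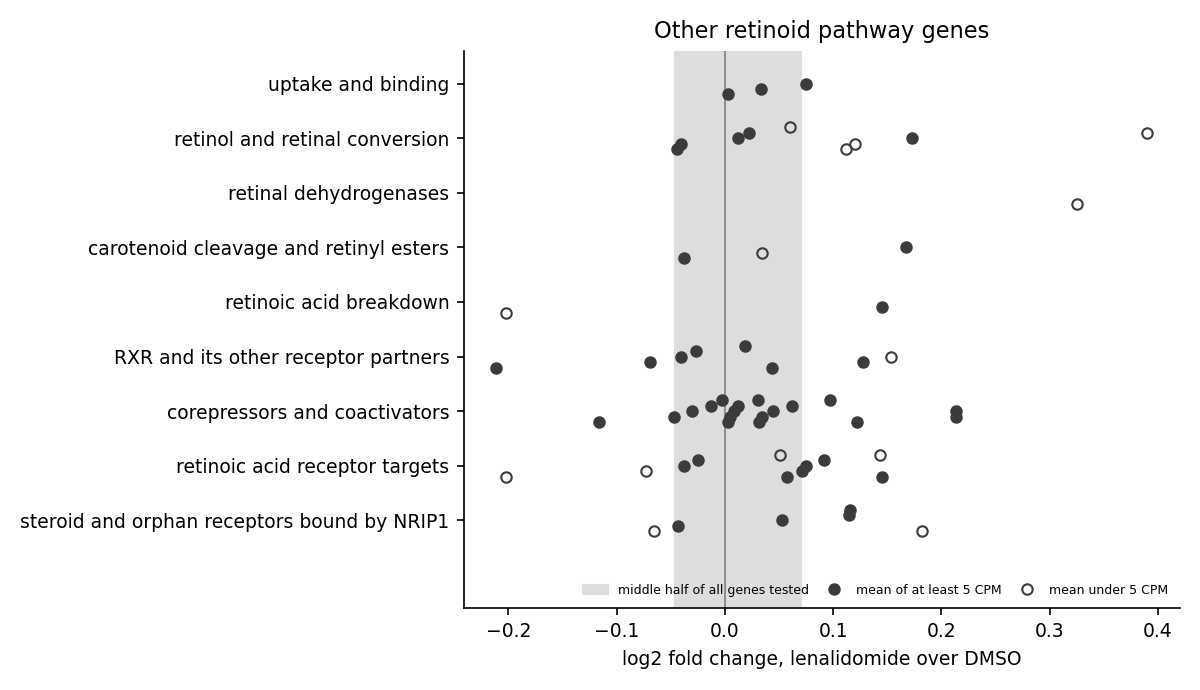
Log2 fold change of lenalidomide over DMSO (horizontal axis) of every tested gene in the 9 lists, 1 point per gene and list. Filled points average 5 CPM or more, open points less, and the grey band spans the middle 50% of all 13925 genes, from -0.0458 to 0.07. VDR at -0.21 is the filled point farthest to the left, and LCOR lies at 0.21 on the right.

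Genes with the most similar course over the 8 libraries were sought among 9087 other genes averaging 10 CPM or more, by the root mean square difference of log2 CPM after each gene was centred on its own mean. For NRIP1 these were FAM83H (0.0626), FOXO1 (0.0684) and ZBTB34 (0.0719), where the median over genes was 0.187 and NRIP1 itself varied by 0.164 about its mean. FAM83H, an organiser of keratin filaments, was at 71.2 ± 1.51 CPM (DMSO) and 84.2 ± 6.4 CPM (lenalidomide) (SD, n = 4). FOXO1, a forkhead transcription factor, was at 15 ± 0.849 and 17.8 ± 1.73 CPM. For ALDH1A3 they were AHRR (0.0786), the repressor of the aryl hydrocarbon receptor, KLF5 (0.0787), a transcription factor of the intestinal epithelium, and NEDD4L (0.0796), a ubiquitin ligase, against a median of 0.193. AHRR was at 12.2 ± 0.567 CPM (DMSO) and 10.1 ± 0.73 CPM (lenalidomide), and KLF5 at 86.3 ± 4.35 and 73.5 ± 1.46 CPM. The treatments of all 6 genes did not overlap, which the search for a like course favours.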

How the data were processed

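RNA from 4 DMSO and 4 lenalidomide libraries was analysed. The authors prepared libraries with a ScriptSeq v2 kit, aligned reads to hg19 with QuasR (spliced alignment, otherwise default settings; version not given in the sources used here), and deposited raw exonic counts per gene on UCSC known genes, with the exonic width. No strand setting is stated. Demultiplexing used bcl2fastq 2.17 per the labels. Intronic counts were not analysed here.

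R 4.3.3 and edgeR 4.0.16 were used for the counts (filterByExpr, TMM, glmQLFit and glmQLFTest on 13925 genes, Benjamini-Hochberg adjustment, threshold 0.05). The filter used a minimum count of 10, applied as the CPM equivalent in at least 4 libraries, and a minimum of 15 in total. Standard errors and 95% confidence intervals come from the coefficient and its F statistic. DESeq2 1.42.0 was an alternative. RPKM was CPM per kilobase of exonic width. The fit was tested on simulated data, with changes larger than those fitted for NRIP1 and ALDH1A3. The simulation therefore cannot show whether differences of their size would be found. Positions and overlaps come from GENCODE v44lift37 on GRCh37, and promoter windows from RefSeq on GRCh38.p14, a build other than that of the counts. A count minimum of 3 served as the limit for a count of 0, which covers counting error only.

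The members and gene lists were chosen with earlier results of these data known. Genes named from a list are the highest by RPKM, and the highest and lowest by log2 fold change over 5 CPM, and any past the threshold. RDH10, NCOR1, the HOX genes and genes named for few counts were chosen after their values were seen. Some genes of the lists and markers are not reported here. Alternatives were RLE scaling, DESeq2, both count filters, a replicate block and leaving out each library. Thinning and GENCODE widths were added after the data were seen.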

Additional observations from a re-analysis of the deposited data

Results flagged for a closer look

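For the 8 genes tested and 18 named pathway genes, the 4 values of each treatment were examined for 1 value standing apart. This was so in 4 of 52 sets, and about 2.6 (1 in 20) would come up by chance. Lenalidomide replicate 4 had the lowest ALDH1A3 level, 285 CPM, while the others had 318 to 320 CPM. The same library had the highest CYP26B1 level, 8.25 CPM, while the others had 6.3 to 6.6 CPM. DMSO replicate 3 had 470 CPM of FABP5 and the others 340 to 362 CPM. Lenalidomide replicate 3 had 448 CPM of TBL1XR1 and the others 411 to 416 CPM.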

How the results depend on the processing

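Over the whole table edgeR called 2 genes. DESeq2 called 9, a replicate block gave 6, and keeping all genes with any count gave 4, and the cause was not tested. Fits lacking 1 library called from 1 to 2 genes, with 1 in all but the fit without lenalidomide replicate 4. RLE scaling, the stricter count filter and thinning each left 2. The pathway lists gave 0 genes in every one of these. NRIP1 and ALDH1A3 were among the 9 genes of DESeq2 and passed in no other alternative, the block included. Both were picked from this same contrast, so nothing is read from these calls. The log2 fold change of NRIP1 ran from 0.282 to 0.335 and that of ALDH1A3 from -0.353 to -0.284 over 14 alternatives. With the block they were 0.31 and -0.326. Over the same alternatives DHRS3 ran from -0.239 to -0.167, RARA from -0.174 to -0.118 and CRABP2 from 0.0966 to 0.192, while RARG (-0.0418 to 0.035), RXRA (-0.014 to 0.0355) and RXRB (-0.0933 to 0.0164) changed sign. Same-numbered samples deviated together only weakly, with correlations over genes of 0.0525, -0.00752, 0.00323 and 0.305 for replicates 1 to 4, and not every sample correlated best with its own number, so that the numbers were not taken as pairs. TPM over the whole table, in place of RPKM, put ALDH1A3 at 307 and NRIP1 at 49.4 with DMSO.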

Other observations

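In the DMSO libraries ALDH1A3, DHRS3, CRABP2, RARA and RARG each had their highest value in replicate 3, at 426.7, 48.21, 122.7, 19.2 and 35.74 CPM, and NRIP1 had its lowest value there, at 132.8 CPM. Without that library the log2 fold change was -0.284 for ALDH1A3, -0.167 for DHRS3, -0.118 for RARA and 0.286 for NRIP1. It was 0.192 for CRABP2. Each of these was in the direction found with all 8 libraries. RARG changed sign, from -0.0038 with all 8 libraries to 0.0056 without that library.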
